A study of Mus musculus with 6 samples.

Results

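The eicosanoid genes examined here are 10 genes of prostaglandin and leukotriene synthesis and prostaglandin E2 sensing, taken by symbol from the 54532 genes in the expression table. They are the phospholipase Pla2g4a, the cyclooxygenases Ptgs1 and Ptgs2, the prostaglandin E synthase Ptges, the leukotriene enzymes and cofactor Alox5, Alox5ap and Lta4h, the lipoxygenase Alox15, and the receptors Ptger2 and Ptger4. All 10 symbols were found, each in 1 row. The libraries came from C57BL/6J mouse bone marrow neutrophils, 3 from wild-type (WT) cells and 3 from cells with a knockout of progranulin (PGRN KO), the secreted growth factor that Grn encodes. The treatment and time labels give a challenge with Candida albicans for 6 h in all 6 libraries, although the titles of the WT libraries carry the word control. Control was read here as the genotype control, and had WT cells not been challenged, genotype and challenge could not be told apart. No library of unchallenged cells was analysed here, so levels are those of challenged cells and no induction by the fungus can be computed.

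The cells were isolated with beads against Ly-6G, a surface protein of neutrophils. WT mice were supplied by Chongqing Medical University and PGRN KO mice by the Jackson Laboratory, so genotype and mouse source cannot be told apart. The sources used here do not say whether the 3 cultures of a genotype came from separate mice, and p-values then measure the spread between these libraries. Grn, which checks the labels, had an FPKM of 168, 161 and 166 in WT and of 0.242, 0.206 and 0.747 in PGRN KO. FPKM is the number of fragments scaled for transcript length and library size, which allows levels of different genes to be compared. The files held 17290604 to 17799798 fragments per WT library and 17087344 to 18821091 per PGRN KO library.

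Eicosanoids are lipid mediators made from arachidonic acid, which cytosolic phospholipase A2 cuts from membrane phospholipids. Cyclooxygenases turn it into prostaglandin H2, from which Ptges makes prostaglandin E2, and 5-lipoxygenase with its activating protein makes leukotriene A4, which Lta4h converts to leukotriene B4. Leukotriene B4 is a chemoattractant and activator of neutrophils, and prostaglandin E2 acts through receptors such as EP2 and EP4 that raise cyclic AMP and restrain neutrophil effector functions. Ptgs2 is the inducible cyclooxygenase, whose mRNA is made rapidly after inflammatory signals and is short-lived, whereas Ptgs1 is made more evenly.

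The start-site regions of 4 members that differed between genotypes are shown, 2 of the prostaglandin branch and 2 of the leukotriene branch, so that the genes can be placed on the genome and their sequence composition compared. Each window runs from 250 bases before to 50 bases after the RefSeq start site on GRCm38.p6, 5′ to 3′ on the gene's strand. Capitals mark the matched motifs, which are the C/EBP palindrome TTGCNNAA, the CRE core CGTCA, the E-box CACGTG, the GC box GGGCGG and the PU.1 core GAGGAA, searched on both strands. Also searched were the kB motif GGANTTNCC, the full CRE TGACGTCA, the AP-1 motif TGANTCA and the TATA box TATAAA. The windows are chr1:150099781-150100080 on the plus strand for Ptgs2, chr2:30903248-30903547 on the minus strand for Ptges, chr6:116461129-116461428 on the minus strand for Alox5 and chr10:93453146-93453445 on the plus strand for Lta4h. The RefSeq start of Ptges, at 30903297, lies inside the gene span of the expression table (30889471 to 30929863) and not at its upstream end.
Ptgs2: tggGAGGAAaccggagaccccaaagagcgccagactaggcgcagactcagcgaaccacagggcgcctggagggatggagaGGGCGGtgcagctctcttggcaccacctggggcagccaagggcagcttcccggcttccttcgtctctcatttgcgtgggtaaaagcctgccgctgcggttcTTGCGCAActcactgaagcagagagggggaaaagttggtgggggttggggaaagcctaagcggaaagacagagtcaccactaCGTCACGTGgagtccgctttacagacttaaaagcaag
Ptges: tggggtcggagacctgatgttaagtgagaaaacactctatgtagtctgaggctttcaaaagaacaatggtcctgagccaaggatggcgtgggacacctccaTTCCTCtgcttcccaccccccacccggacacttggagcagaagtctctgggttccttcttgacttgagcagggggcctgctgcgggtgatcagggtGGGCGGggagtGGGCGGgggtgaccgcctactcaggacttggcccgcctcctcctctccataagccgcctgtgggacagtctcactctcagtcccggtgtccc
Alox5: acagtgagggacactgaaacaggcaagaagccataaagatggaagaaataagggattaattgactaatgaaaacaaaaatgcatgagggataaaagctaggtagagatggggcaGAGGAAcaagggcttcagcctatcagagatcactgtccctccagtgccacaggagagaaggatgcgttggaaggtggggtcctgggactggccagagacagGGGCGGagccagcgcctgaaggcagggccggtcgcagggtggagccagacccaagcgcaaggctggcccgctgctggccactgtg
Lta4h: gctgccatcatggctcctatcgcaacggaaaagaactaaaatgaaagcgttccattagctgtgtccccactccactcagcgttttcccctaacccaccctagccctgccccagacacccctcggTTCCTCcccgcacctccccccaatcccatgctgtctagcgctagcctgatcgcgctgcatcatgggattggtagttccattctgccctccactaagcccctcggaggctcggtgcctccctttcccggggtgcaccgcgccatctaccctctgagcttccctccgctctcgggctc

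The Ptgs2 window held a C/EBP match at position -69, counted with the start site as +1, a GC box at -170, a PU.1 core at -247, and a CRE core at +14 that shares bases with an E-box at +17. Of 32851 RefSeq windows of the same length, 10.8% held the C/EBP motif, 20.8% the CRE core and 7.15% the E-box. The Ptges window held GC boxes at -53 and -42 and a PU.1 core at -149, on the opposite strand. The Alox5 window held a GC box at -35 and a PU.1 core at -136, and the Lta4h window a PU.1 core at -126 on the opposite strand. The GC box was in 35.7% of all windows and the PU.1 core in 28.3%. The kB motif (3.95% of all windows), the full CRE (1.79%), the AP-1 motif (7.81%) and the TATA box (13.6%) had no match in these 4 windows, which says only that these letters are not there. GC content was 59.3% in the Ptgs2 window, 60.0% in Ptges, 55.7% in Alox5 and 60.7% in Lta4h, against a median of 52.7% over all windows. Of the 10 members, 8 had a RefSeq window.

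In challenged neutrophils, the members of inducible prostaglandin E2 synthesis and sensing, Ptgs2, Ptges, Ptger2 and Ptger4, were lower in PGRN KO than in WT. The genes of leukotriene B4 synthesis, Alox5, Alox5ap and Lta4h, were higher, as was the other cyclooxygenase, Ptgs1. Pla2g4a, upstream of both branches, did not pass the test, and Alox15 was too low to test. In all, 9 of the 10 members passed the filter on low values, and 8 of these 9 had an adjusted p under 0.05 in limma's moderated test on log2(FPKM + 1), 4 higher and 4 lower. Leaving out 1 library gave 2 to 6 calls, and of the members only Ptgs2 and Lta4h were called under all 17 alternative settings. Over all 14807 genes tested the share called was 17.9%, with 7.94% higher and 9.95% lower in PGRN KO, and among genes averaging 1 FPKM or more it was 25.6%. The same 8 members had no overlap between the WT and the PGRN KO libraries, against 37.7% of all genes tested (18.1% higher and 19.6% lower in PGRN KO). The members were chosen with earlier results of these data known, so these shares are given as a description. The median log2 fold change of the 9 members was -0.034, and that of all genes was 0.0026. Summed markers of immature neutrophils were higher in PGRN KO (770.2 to 835 FPKM against 263 to 282). Summed monocyte markers were lower without Cd14 (92.2 to 104 against 118 to 121) and overlapped with it (2972 to 3200 against 2991 to 3248). Of 8 monocyte markers tested, 3 were lower and none higher. The part of these cells in these results was not tested. In bulk libraries, fewer cells of a type and less RNA per cell cannot be told apart.

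**Figure D1:**
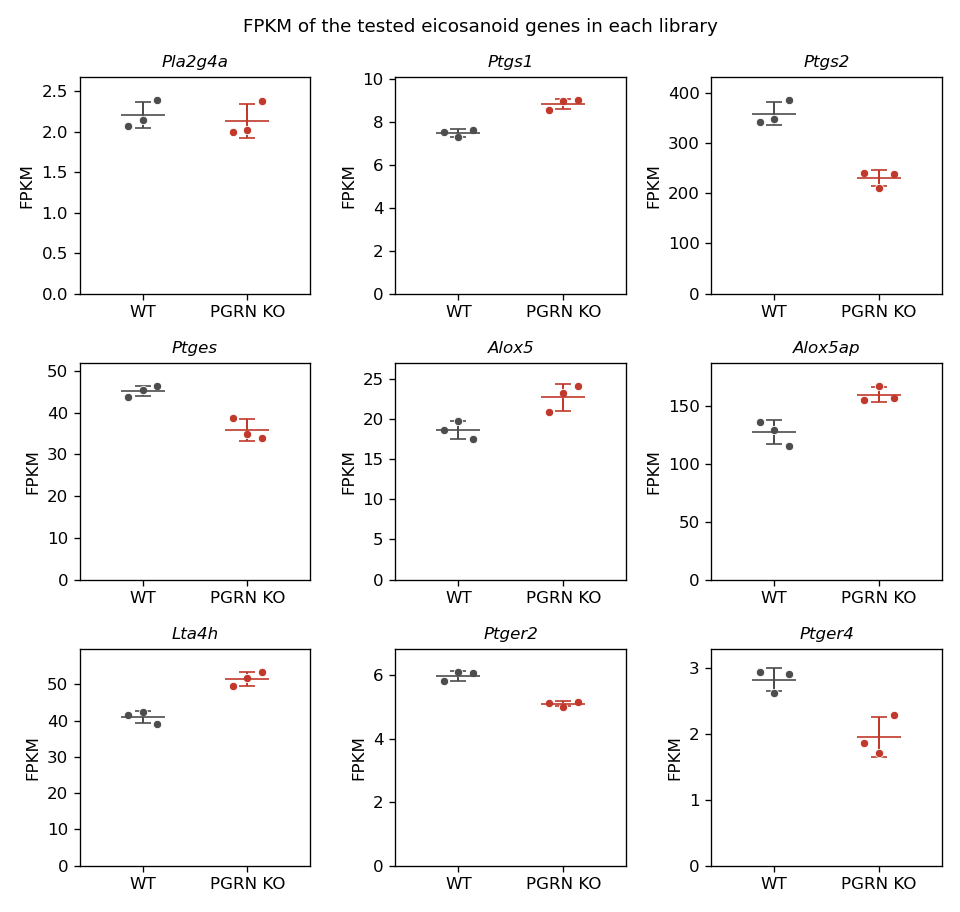
FPKM of the 9 tested members in each library, 1 panel per gene with its own linear axis from 0; points are libraries, horizontal bars the mean and vertical bars the SD (n = 3 per genotype). The groups are apart in 8 panels, such as Ptgs2 (343 to 386 in WT, 212 to 242 in PGRN KO), and overlap for Pla2g4a.

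Pla2g4a encodes cytosolic phospholipase A2 alpha, which releases arachidonic acid, and lies at chr1:149829618-149961290 on the minus strand. Its FPKM was 2.07, 2.15 and 2.38 in WT and 1.99, 2.02 and 2.37 in PGRN KO. The libraries of the genotypes overlapped, and the spread within PGRN KO was larger than the difference. The log2 fold change was -0.034 with a 95% interval from -0.22 to 0.15 (limma, adjusted p = 0.806). The values rest on 715 fragments in the WT libraries together and 760 in PGRN KO, and a difference within that interval was not detectable at this depth and spread. The sign was positive with plain totals (0.048), with voom (0.073) and without WT replicate 3 (0.0065).

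Ptgs2, the inducible cyclooxygenase, was the most abundant member and had the largest difference of the 9 tested. Its FPKM was 343, 348 and 386 in WT and 242, 212 and 239 in PGRN KO. Every PGRN KO library was below every WT library, with a gap wider than the spread within either genotype. The mean fell by 35.7%, from 359 ± 23.4 (SD, n = 3) to 231 ± 16.7 (SD, n = 3). The log2 fold change was -0.64 (SE 0.071, limma, adjusted p = 0.00232). The gene lies at chr1:150100031-150108227 on the plus strand and collected 83580 fragments in WT and 58906 in PGRN KO, so counting error is small beside the spread between libraries. The call was kept under all 17 alternative settings, with log2 fold changes from -0.67 to -0.52.

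Ptges encodes the inducible microsomal prostaglandin E synthase that works downstream of Ptgs2, and lies at chr2:30889471-30929863 on the minus strand. Its FPKM was 43.9, 45.4 and 46.3 in WT and 38.8, 34.8 and 34.0 in PGRN KO. The genotypes did not overlap, and PGRN KO replicate 4 was the nearest to WT. The mean fell by 20.6%, from 45.2 ± 1.23 to 35.9 ± 2.55 (SD, n = 3 each). The log2 fold change was -0.33 (SE 0.059, limma, adjusted p = 0.0123). Without WT replicate 2 the adjusted p in limma was 0.0559, and without PGRN KO replicate 5 it was 0.0567.

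Ptgs1, the constitutive cyclooxygenase, went the other way from Ptgs2. Its FPKM was 7.52, 7.29 and 7.65 in WT and 8.58, 8.96 and 9.01 in PGRN KO. All PGRN KO libraries were above all WT libraries, by a small margin relative to the level of the gene. The mean rose by 18.2%, from 7.49 ± 0.185 to 8.85 ± 0.234 (SD, n = 3 each), and the log2 fold change was 0.22 (SE 0.049, limma, adjusted p = 0.0275). The limma call was lost without WT replicate 1 (adjusted p = 0.0759), 2 (0.098) or 3 (0.0558) and without PGRN KO replicate 5 (0.0914) or 6 (0.0621). The gene lies at chr2:36230426-36252272 on the plus strand.

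The ratio of Ptgs2 to Ptgs1 within a library does not depend on how libraries were scaled, and it did not overlap between genotypes. Ptgs2 FPKM was 45.6, 47.8 and 50.4 times Ptgs1 FPKM in WT and 28.1, 23.6 and 26.6 times in PGRN KO. The difference in the mean log2 ratio, PGRN KO minus WT, was -0.88, and the pairwise differences between libraries ranged from -1.09 to -0.70. The exact two-sided permutation test gave p = 0.10, the smallest that 3 against 3 libraries allow, and 0.20 after Benjamini-Hochberg adjustment over 8 ratios. Ptges fell less than Ptgs2, and its FPKM was 0.128, 0.130 and 0.12 of that of Ptgs2 in WT and 0.161, 0.165 and 0.142 in PGRN KO, which did not overlap (log2 difference 0.30, exact permutation p = 0.10, adjusted 0.20).

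Alox5 encodes 5-lipoxygenase, the first enzyme of leukotriene synthesis, and lies at chr6:116410077-116461178 on the minus strand. Its FPKM was 18.7, 19.8 and 17.6 in WT and 20.9, 23.2 and 24.1 in PGRN KO. The genotypes did not overlap, and the gap between WT replicate 2 and PGRN KO replicate 4 was smaller than the spread within either. The mean rose by 21.8%, from 18.7 ± 1.10 to 22.7 ± 1.67 (SD, n = 3 each), with a log2 fold change of 0.27 (SE 0.070, limma, adjusted p = 0.0405). The limma call was lost without any filter on low values (adjusted p = 0.0688), without the trend (0.0586), without WT replicate 1 (0.108), 2 (0.0698) or 3 (0.115), and without PGRN KO replicate 5 (0.131) or 6 (0.102).

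Alox5ap encodes the 5-lipoxygenase-activating protein, a membrane protein that presents arachidonic acid to the enzyme, and was the most abundant gene of the leukotriene branch. Its FPKM was 137, 129.9 and 116 in WT and 155, 167 and 158 in PGRN KO. Each PGRN KO library was above each WT library, and WT replicate 3 was the lowest of the 6. The mean rose by 25.5%, from 128 ± 10.6 to 160.1 ± 6.33 (SD, n = 3 each), with a log2 fold change of 0.33 (SE 0.068, limma, adjusted p = 0.0199). The limma call was lost without WT replicate 2 (adjusted p = 0.0667) and without PGRN KO replicate 5 (0.0806) or 6 (0.0512). The gene lies at chr5:149264767-149288153 on the plus strand, and 13.3% of its exon bases overlap Gm19719 on the opposite strand, which had 131 fragments in the 6 libraries against 9194 in WT and 12650 in PGRN KO for Alox5ap. The sources used here do not give the strand setting of the authors' counting.

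Lta4h encodes leukotriene A4 hydrolase, which makes leukotriene B4, and lies at chr10:93453411-93484875 on the plus strand. Its FPKM was 41.4, 42.4 and 39.1 in WT and 49.4, 51.8 and 53.3 in PGRN KO. The gap between the genotypes was wider than the spread within either. The mean rose by 25.6%, from 41.0 ± 1.72 to 51.5 ± 1.96 (SD, n = 3 each), with a log2 fold change of 0.32 (SE 0.050, limma, adjusted p = 0.00785). Lta4h and Ptgs2 were the members called under all 17 alternatives, and for Lta4h the log2 fold change ranged from 0.29 to 0.45.

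The proportions among the 3 genes of the leukotriene branch overlapped between genotypes. Alox5 was 0.136, 0.152 and 0.151 of Alox5ap in WT and 0.134, 0.139 and 0.153 in PGRN KO, with overlapping libraries (log2 difference -0.047, pairwise differences from -0.18 to 0.16, exact permutation p = 0.70). Alox5ap was 3.30, 3.06 and 2.97 times Lta4h in WT and 3.15, 3.23 and 2.96 times in PGRN KO, again overlapping (log2 difference 0.0015, pairwise differences from -0.16 to 0.12). The Alox5 to Lta4h ratio overlapped too, with a log2 difference of -0.045 and pairwise differences from -0.14 to 0.0095.

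The ratio between branches, Ptgs2 to Alox5, did not overlap between genotypes, in a design whose smallest exact p is 0.10. Nor did the ratio of Pla2g4a, upstream of both branches, to Alox5. Ptgs2 was 18.4, 17.6 and 22.0 times Alox5 in WT and 11.6, 9.11 and 9.94 times in PGRN KO, without overlap (log2 difference -0.92, pairwise differences from -1.27 to -0.61, exact permutation p = 0.10, adjusted 0.20). Pla2g4a relative to Alox5 was 0.111, 0.109 and 0.136 in WT and 0.0953, 0.0872 and 0.0984 in PGRN KO (log2 difference -0.33, exact permutation p = 0.10, adjusted 0.20). Of the summed FPKM of the 10 members, Ptgs2 made up 57.0%, 57.7% and 61.9% in WT and 46.1%, 41.8% and 45.4% in PGRN KO. The 3 leukotriene genes made up 32.7%, 31.8% and 27.7% in WT and 43.1%, 47.8% and 44.6% in PGRN KO. These shares are of mRNA levels per transcript length and do not measure lipid products.

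**Figure D2:**
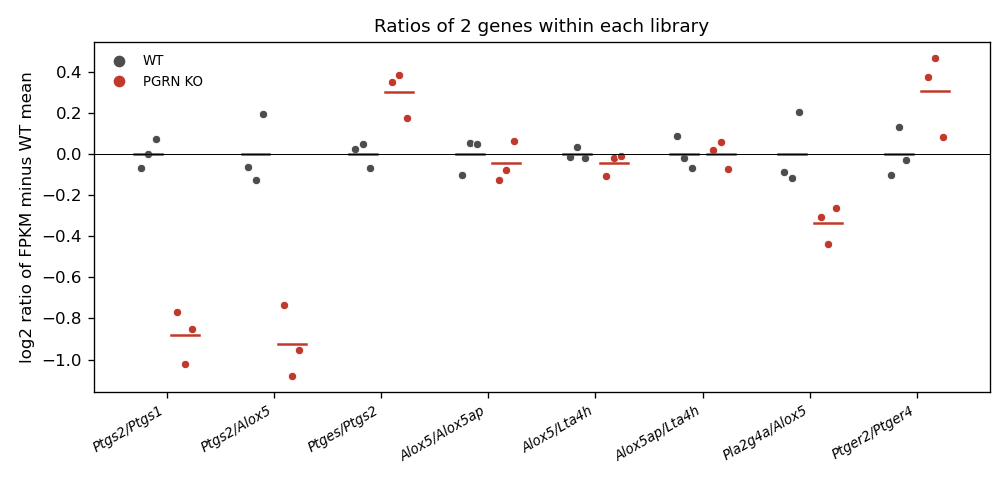
Log2 ratio of the FPKM of 2 members within each library, minus the WT mean of that ratio, for 8 ratios; points are libraries and short bars genotype means (n = 3 per genotype). Ptgs2/Ptgs1 and Ptgs2/Alox5 lie at -0.88 and -0.92 on average in PGRN KO, whereas the ratios among Alox5, Alox5ap and Lta4h overlap between genotypes.

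Alox15, which encodes 12/15-lipoxygenase, had 5 fragments in the 3 WT libraries and 2 in the 3 PGRN KO libraries. Its FPKM was 0, 0.0489 and 0.0714 in WT and 0.0228, 0.0224 and 0 in PGRN KO. These levels are below the filter of a mean FPKM of 0.1, and no difference was detectable at this depth. The gene lies at chr11:70344152-70352031 on the minus strand.

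Ptger2 and Ptger4 encode the prostaglandin E2 receptors EP2 and EP4. Ptger2 FPKM was 5.80, 6.08 and 6.06 in WT and 5.14, 5.00 and 5.15 in PGRN KO. The libraries of each genotype lay close together and did not overlap. The mean fell by 14.8%, from 5.98 ± 0.155 to 5.10 ± 0.0810 (SD, n = 3 each), with a log2 fold change of -0.20 (SE 0.051, limma, adjusted p = 0.0416). The limma call was kept with median-of-ratios scaling (-0.20, adjusted p = 0.0416) and quantile normalization (-0.22, 0.0287), and was lost on plain totals (-0.094, 0.232) and in voom (-0.11, 0.341). In limma it was also lost without WT replicate 1 (0.0773), 2 (0.129) or 3 (0.0996) and without PGRN KO replicate 4 (0.0747), 5 (0.123) or 6 (0.0706). The gene lies at chr14:44988195-45003820 on the plus strand, and 4.74% of its exon bases overlap the opposite-strand Gm17173, which had 510 fragments against 1578 in WT and 1474 in PGRN KO for Ptger2.

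Ptger4 FPKM was 2.93, 2.62 and 2.91 in WT and 1.86, 1.71 and 2.29 in PGRN KO. The genotypes did not overlap, and PGRN KO replicate 6 was the nearest to WT. The mean fell by 30.7%, from 2.82 ± 0.176 to 1.95 ± 0.301 (SD, n = 3 each), with a log2 fold change of -0.37 (SE 0.090, limma, adjusted p = 0.0326). The limma call was lost with no filter on low values (adjusted p = 0.0673), on plain totals (-0.29, 0.0636), without WT replicate 1 (0.102), 2 (0.0723) or 3 (0.101) and without PGRN KO replicate 4 (0.0914) or 5 (0.105). The gene lies at chr15:5206661-5244187 on the minus strand. The Ptger2 to Ptger4 ratio was 1.98, 2.33 and 2.08 in WT and 2.76, 2.93 and 2.25 in PGRN KO, with overlapping libraries (exact permutation p = 0.20).

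**Figure D3:**
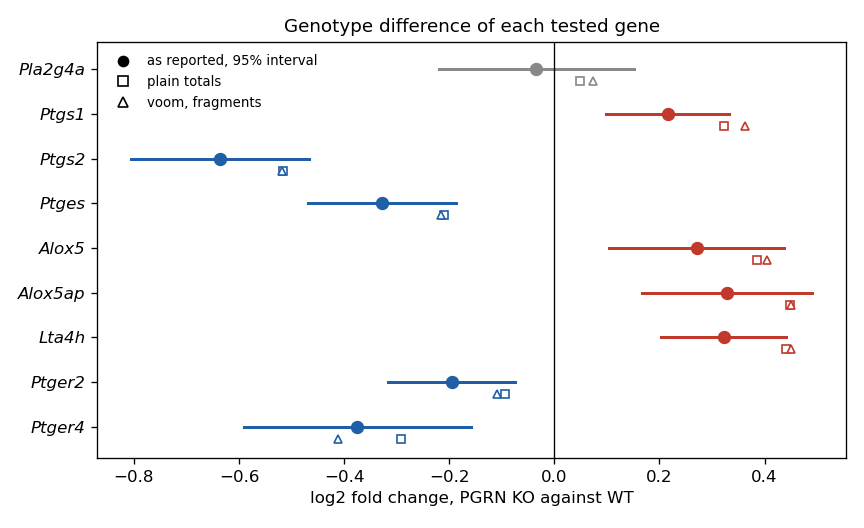
Log2 fold change of PGRN KO against WT for the 9 tested members; filled circles and lines are the limma estimate with its 95% interval, squares the estimate on plain totals of fragments and triangles the voom estimate. Voom was run on the same plain totals. Ptgs2 at -0.64 and Lta4h at 0.32 keep their side of 0 in each fit, whereas Pla2g4a lies at -0.034, 0.048 and 0.073.

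The deposited values were scaled by library sizes that were smaller than the plain totals of fragments in WT and larger in PGRN KO. Plain totals moved all genes by a median of 0.081 on the log2 scale, and voom, which was run on the same totals, by 0.12. Such totals rescale all genes of a library by the same factor, so subtracting the shift largely returns the estimates on the deposited values. Relative to the shift, Ptgs2 was at -0.60 and -0.64, Lta4h at 0.36 and 0.33, and Ptger2 at -0.17 and -0.23. Directions kept in this way are not a further check on scaling. With plain totals, 6 members were called, and the lower calls were Ptgs2 and Ptges.

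In order of level, WT neutrophils had Ptgs2 first, then Alox5ap, Ptges, Lta4h, Alox5, Ptgs1, Ptger2, Ptger4, Pla2g4a and Alox15, with no overlap between neighbours. Ptgs2 was 2.82 times Alox5ap in WT and 1.44 times in PGRN KO. In PGRN KO, Lta4h stood above Ptges (51.5 against 35.9) and Pla2g4a above Ptger4 (2.13 against 1.95), the latter pair with overlapping libraries.

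The other genes of the pathway were grouped in 6 lists of 95 genes, of which 94 had a row with a unique symbol and 68 passed the filter on low values. Of the 68, 8 were higher and 15 lower in PGRN KO and 45 did not pass the test, that is 33.8% called. Over all genes tested the share was 17.9%, and 25.6% among genes averaging 1 FPKM or more. By list the share ran from 21.4% for arachidonic acid release to 50% for the other leukotriene genes. The lists hold few tested genes, and their counts, here and list by list below, are given as a description. Beside these counts, 7.94% of all genes tested were higher and 9.95% lower in PGRN KO. The median log2 fold change of the 68 genes was -0.067.

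Arachidonic acid release and its return to phospholipids were covered by 22 genes, of which 14 were tested, 2 were higher and 1 was lower (median log2 fold change 0.032). Mboat7, an acyltransferase that puts arachidonic acid into phosphatidylinositol, fell from 35.7, 35.6 and 34.5 FPKM in WT to 28.6, 27.4 and 23.8 in PGRN KO (log2 fold change -0.40, limma, adjusted p = 0.0118). Lpcat3, an acyltransferase for phosphatidylcholine, rose from 12.5, 12.5 and 12.1 to 14, 14.5 and 14.3 (0.19, limma, adjusted p = 0.0274). Acsl3, which activates fatty acids with coenzyme A, had 0.816 ± 0.213 FPKM in WT and 1.37 ± 0.123 in PGRN KO (0.39, limma, adjusted p = 0.0454), and was called under 8 of 17 alternatives. The adjusted p in limma was 0.0553 for Mboat7 without WT replicate 2, and Lpcat3 was called under 12 of 17 alternatives.

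Of 14 other genes of prostanoid synthesis and breakdown, 10 were tested, 1 was higher and 2 were lower (median log2 fold change -0.047). Ptgr1, which inactivates leukotriene B4 and reduces prostaglandin metabolites, fell from 31.0, 24.8 and 26.4 FPKM to 17.3, 18.3 and 20.7 (-0.52, limma, adjusted p = 0.0145, and 0.0646 without PGRN KO replicate 5). Ptges3, a cytosolic prostaglandin E synthase that is also the Hsp90 co-chaperone p23, fell from 70.1 ± 0.685 to 57.7 ± 3.38 (-0.28, limma, adjusted p = 0.0133). Ptges3 was not called on plain totals (adjusted p = 0.0608 in limma) or in voom (0.0551), nor without WT replicate 2 (0.0571). Hpgds, the hematopoietic prostaglandin D synthase, had 1.87 ± 0.0850 in WT and 2.36 ± 0.0205 in PGRN KO (0.23, limma, adjusted p = 0.0442), and was called under 9 of 17 alternatives. The prostaglandin dehydrogenase Hpgd was at 0 in all libraries.

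Of 11 other leukotriene genes with a unique row, 10 were tested, 3 were higher and 2 were lower (median log2 fold change -0.074). Cyp4f18, which omega-oxidizes and so inactivates leukotriene B4 in mouse neutrophils, fell from 103, 112 and 119 FPKM to 82.5, 89.7 and 85.6 (-0.37, limma, adjusted p = 0.0113). It was not called without WT replicate 2 (limma, adjusted p = 0.0542) or after quantile normalization (0.0529). Abcc1, an exporter of leukotriene C4, had 36.4 ± 3.05 in WT and 30.3 ± 0.838 in PGRN KO (-0.25, limma, adjusted p = 0.0437), a call held under 7 of 17 alternatives. Mgst2, which can make leukotriene C4, rose from 5.14 ± 0.0864 to 7.82 ± 1.32 (0.51, limma, adjusted p = 0.0219), and Cotl1, an actin-binding protein that also binds 5-lipoxygenase, from 337 ± 22.7 to 414 ± 31.4 (0.30, limma, adjusted p = 0.0368). Mgst2 was called under 12 of 17 alternatives and Cotl1 under 9. The last of the 3 higher genes was Mgst3, at 18 fragments in WT and 77 in PGRN KO, named after its values were seen.

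Of 9 other lipoxygenases, peroxidases and epoxide hydrolases, 3 were tested and 1 was higher, and Alox12b, Alox12e and Alox8 were at 0 in all libraries. Gpx1, a glutathione peroxidase that reduces lipid hydroperoxides, rose from 243, 239 and 237 FPKM in WT to 368, 410.4 and 404 in PGRN KO. The groups were far apart relative to their spread, with a log2 fold change of 0.71 (SE 0.051, limma, adjusted p = 0.000501), and the call was held under all 17 alternatives.

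Of 17 other receptors for eicosanoids and related lipids, 10 were tested, none was higher and 3 were lower (median log2 fold change -0.081). That is 30% called, near the 25.6% among all genes averaging 1 FPKM or more. Ptafr, the receptor of platelet-activating factor, fell from 218, 218 and 219 FPKM to 158, 139.7 and 151 (-0.55, SE 0.051, limma, adjusted p = 0.00132). Ptgir, the prostacyclin receptor, fell from 17.1, 18.2 and 15.9 to 13.3, 12.5 and 13.3 (-0.36, limma, adjusted p = 0.0101), and both calls were held under all 17 alternatives. Gpr132, a receptor of oxidized fatty acids, fell from 21.6 ± 0.330 to 17.2 ± 1.64 (-0.32, limma, adjusted p = 0.0258). It was not called on plain totals (limma, adjusted p = 0.0970) or without WT replicate 1 (0.0844), 2 (0.0804) or 3 (0.0791). Ltb4r1, the high-affinity leukotriene B4 receptor of neutrophils, named after its values were seen, had 82.8, 75.5 and 72.6 in WT and 83.6, 82.2 and 83.7 in PGRN KO, with a log2 fold change of 0.11 (95% interval from -0.018 to 0.24, limma, adjusted p = 0.214). Ptger1 and Ptger3, the other prostaglandin E2 receptor genes, were also named after their values were seen. Ptger1 had 0.206 ± 0.0786 in WT and 0.175 ± 0.0321 in PGRN KO (-0.037, limma, adjusted p = 0.776), and Ptger3 was too low to test.

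Genes with known parts in the transcription of Ptgs2 or the decay of its mRNA were 21, all tested, of which 1 was higher and 7 were lower (median log2 fold change -0.13). The immediate early transcription factor Egr1 fell from 39.9, 39.9 and 41.1 FPKM in WT to 22.4, 23.1 and 18.9 in PGRN KO (-0.88, SE 0.077, limma, adjusted p = 0.000971). Dusp1, a phosphatase of p38 and JNK, fell from 702, 722 and 733 to 435, 395 and 408 (-0.80, limma, adjusted p = 0.000294), and Fos, a subunit of AP-1, from 45.8, 42.8 and 43.6 to 27.4, 25.8 and 24.4 (-0.75, limma, adjusted p = 0.000576). These 3 calls were held under all 17 alternatives. Cebpd, a C/EBP factor, rose from 31.5 ± 2.33 to 37.8 ± 0.984 (0.26, limma, adjusted p = 0.0310), a call held under 9 of 17 alternatives. Named after their values were seen, Zfp36, which destabilizes AU-rich mRNAs, fell from 599 ± 8.33 to 387 ± 79.8 (-0.65, limma, adjusted p = 0.0225), and Cebpb, the most abundant C/EBP gene of the list, had 1578 ± 75.6 and 1301 ± 193 with overlapping libraries (limma, adjusted p = 0.110).

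**Figure D4:**
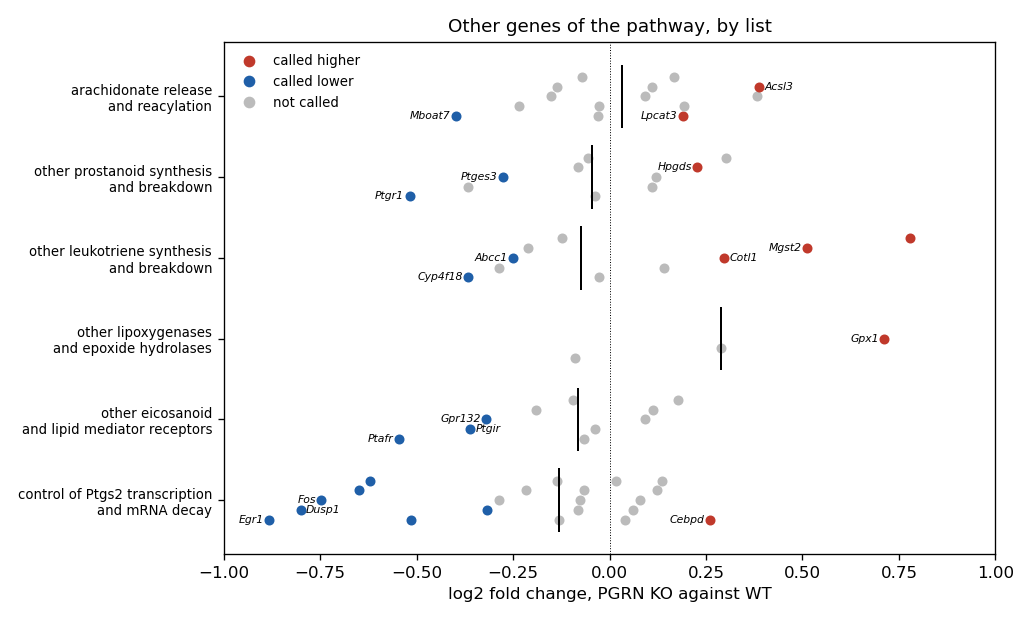
Log2 fold change of PGRN KO against WT for the 68 other tested genes of the pathway, 1 point per gene in 6 lists; red and blue points passed the limma test, grey points did not, black bars are list medians and vertical offsets only separate points. The lower calls reach -0.88 for Egr1 and the higher calls 0.78 for Mgst3 and 0.71 for Gpx1.

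The genes whose log2(FPKM + 1) followed Ptgs2 most closely over the 6 libraries were Dopey2 (Pearson r = 0.999), Adss (0.999) and Gm47128 (0.998), and 1194 of 9248 genes averaging 1 FPKM or more had r above 0.9. For Alox5ap they were Armc8 (0.999), Racgap1 (0.997) and Igkv14-130 (0.996), with 621 of 9248 above 0.9. These 6 points share the genotype difference and the libraries, and the correlations are given as a description.

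Markers of several cell types moved with genotype. Beside the marker counts here and in the next paragraph, 17.9% of all genes tested were called, 7.94% higher and 9.95% lower in PGRN KO. Neutrophil markers were abundant in both genotypes, with a summed FPKM of 72377 to 76943 in WT against 73688 to 83698 in PGRN KO, mostly S100a8 and S100a9, and 1 of 12 was higher and 2 were lower. All 6 markers of immature neutrophils were higher in PGRN KO, with the sums given above. Elane, a primary granule protease, rose from 59.5 ± 3.27 to 256 ± 9.32, and Fcnb from 137 ± 3.21 to 159.7 ± 6.19. Basophil and mast cell markers, of which 5 of 7 tested were higher, summed to 3.54 to 4.01 in WT against 13.3 to 14.7 in PGRN KO without the abundant Hdc, and Tpsb2 was at 0. Prss34, a basophil protease, rose from 1.42 ± 0.209 to 6.76 ± 0.971 (log2 fold change 1.67, limma, adjusted p = 0.000377). All 7 tested B and plasma cell markers were higher (24.7 to 27.1 against 73.4 to 88.8, led by Jchain and Mzb1), as were 3 of 6 eosinophil markers (12.6 to 15.1 against 14 to 17.1, with 1 lower, Ear6, and Prg2 among the higher).

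Monocyte and macrophage markers summed to 118 to 121 in WT against 92.2 to 104 in PGRN KO without Cd14, and 3 of 8 tested were lower and none higher. C1qa, C1qb and C1qc were at or near 0. Cd14 (2979 against 2982 on average) and Adgre1 (46.3 against 43.4) did not pass the test. Endothelial and stromal markers were lower for 4 of 5 (13.1 to 14.5 against 7.64 to 7.96, with Pecam1 and Col1a1 leading). Platelet markers were near 0 (0.844 to 0.937 against 1.54 to 1.78, mostly Pf4 and Gp6, with Gp1bb at 0 and 1 of 3 higher). T and NK cell markers summed to 2.49 to 2.99 and 7.56 to 8.98, nearly all Nkg7, with Trac low, Cd3e and Cd3g at 0 and 1 of 2 tested higher. The part of these cells in the differences of the eicosanoid genes was not tested.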

How the data were processed

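RNA was sequenced from 3 WT and 3 PGRN KO neutrophil cultures, all challenged with C. albicans, as poly-A selected libraries. The methods name HISAT and HTSeq, and the submitters' processing notes list HISAT2 2.0.5, featureCounts 1.5.0-p3, DESeq2 1.20.0 and the builds mm10 and GRCm38. The authors deposited FPKM per gene, the unit used here. Multiplied by gene length and library size these gave whole fragments within 0.05 fragments. All 10 members have the positions of GENCODE M21 (GRCm38).

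For the test between genotypes, limma 3.58.1 (eBayes with trend, two-sided) in R 4.3.3 was fitted to log2(FPKM + 1) of the 14807 genes averaging 0.1 FPKM or more, with Benjamini-Hochberg adjustment and a threshold of 0.05. Fold changes on this scale understate changes of low genes. Ratios of members were compared with exact permutation tests. Alternatives covered the pseudocount, filter, scaling, test and each left-out replicate. Promoter windows came from RefSeq (GRCm38.p6). Values were read with Python 3.11.15, pandas 2.3.3 and scipy 1.17.1.

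Members and gene lists were chosen with earlier results of these data known. Named genes are Grn, the members, in each pathway list the 3 most increased and 3 most decreased called genes averaging 1 FPKM or more, the 2 most abundant genes of each marker list and markers at 0, and the 3 genes most correlated with the members of largest change. Any other gene is said to be chosen after its values were seen, apart from those given only as counts or as markers near 0. Dpep2, with 2 identifiers, was left out. A marker gene that the rule would name is not reported here. All replicate pairs differed beyond sampling noise.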

Additional observations from a re-analysis of the deposited data

How the results depend on the processing

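No paired analysis was possible because the genotypes share no replicate numbers. Of the members, 8 were called, and leaving out 1 library gave 2 to 6, with 1 to 4 of the 4 higher and 1 to 3 of the 4 lower calls. The lowest count, 2, came without WT replicate 2 and without PGRN KO replicate 5, when Ptgs2 and Lta4h were called. Plain totals of fragments gave 2 lower calls. Of the other pathway genes 23 were called, 36 in voom and 9 to 21 without 1 library. Of all genes 2648 were called, 4236 in voom and 1322 to 2161 without 1 library. The share of called genes that were higher in PGRN KO was 44.4%, 69.7% on plain totals (2149 higher and 934 lower) and 70.4% in voom (2984 higher and 1252 lower). Pla2g4a, not called in any setting, was at -0.034 and reversed on plain totals (0.048), in voom (0.073) and without WT replicate 3 (0.0065), with a range of -0.089 to 0.0065 when 1 library was left out. The other 8 tested members kept their direction under all 17 alternatives. With 1 added to both FPKM, the genotype difference of each of the 8 ratios between members changed by less than the SD between replicates of the more variable genotype. For Ptger2 to Ptger4 that difference shrank, by more than the SD of WT (0.12) and less than that of PGRN KO (0.20). Ratios were also rerun with 1 library left out. Leaving out 1 of 3 libraries cannot move the mean of a genotype by 1 SD of that genotype, so those reruns decide nothing on this measure. Voom was run on the same plain totals, so voom and plain totals are not separate scalings. The cause of these dependences was not tested, except that a fit without 1 library has fewer samples. Depth limits Alox15, with 7 fragments in all.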
